A study of Mus musculus with 6 samples.

Results

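Imprinted genes are transcribed mainly from the allele inherited from a single parent, which depends on DNA methylation marks set in the egg or the sperm. They lie in clusters, in which a control region governs several neighbours, and many of them regulate growth, hormone secretion and the size of endocrine cell populations. In pancreatic β cells they include neuronatin (Nnat), which aids the processing of preproinsulin in the endoplasmic reticulum, and the maternally expressed long noncoding RNA Meg3. The genes described here are 33 imprinted mouse genes taken by name from the deposited table of 54532 genes, each present in a single row. The membership was set by name and by no measured value, although earlier results of these data were known when it was chosen. The table sums both parental alleles of a gene, so the imprint itself was not measured.

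RNA was taken from pancreatic islets of mice at 7 weeks of age. The libraries labelled Wtap-βKO (3 samples) came from mice whose label names a knockout of Wtap in β cells, and the control libraries (3 samples) came from Wtap flox/flox mice, in which the gene carries recombination sites. Each sample pooled the islets of 3 mice, and the labels name neither the promoter of the recombinase nor the deleted exons. The series title names the effects of WTAP on β-cell function as its question. WTAP belongs to the writer complex of N6-methyladenosine (m6A), a mark on RNA.

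Values are deposited FPKM, read counts scaled by gene length and by a size assigned to each library. They go back to between 16353297 and 18682745 whole reads per library. The assigned size was 1.068, 1.039 and 1.037 times these reads in the libraries labelled Wtap-βKO. In Wtap flox/flox libraries it was 0.988, 0.966 and 0.952 times these reads, so the deposited scaling differed between the groups. Calls under other scalings are given below. Wtap itself stood at 11.2, 11.9 and 12.3 FPKM in the libraries labelled Wtap-βKO and at 10.5, 11.4 and 11.6 FPKM in Wtap flox/flox libraries (log2 difference 0.07, SE 0.06, limma adjusted p = 0.475). The gene for which the groups are named was thus not lower, the value covers every exon and every islet cell type, and directions below are those of the libraries as labelled. The islet hormone genes Ins1, Ins2, Gcg, Sst and Ppy were abundant in every library. Ins1 was 2.57-fold lower and Sst 1.68-fold higher in the libraries labelled Wtap-βKO (limma adjusted p = 0.00869 and 0.0263), and Ins2, Gcg and Ppy were not called. Replicate 2 labelled Wtap-βKO stood apart on the second principal component (16.2% of the variance), and calls that depend on it are given without it.

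Of the 33 imprinted genes, 27 passed the filter of a mean of at least 0.5 FPKM and were tested. Of these 27, 3 rose (Gnas, Mirg and Ndn) and 6 fell (Nnat, Plagl1, Peg3, Meg3, Zim1 and Impact) in the libraries labelled Wtap-βKO, by limma at an adjusted p under 0.05. Over all 15927 tested genes 8.77% were called higher and 11.3% lower, 20.1% in all. The groups did not overlap, with the libraries labelled Wtap-βKO above, for 6 of the 27 genes (19.1% over all tested genes), and with them below, for 10 (22.1%). The median log2 difference was -0.05 over the 27 genes and -0.01 over all tested genes, while the median size of the difference regardless of sign was 0.30 over the 27 genes and 0.18 over all tested genes. The count depended on single libraries. Among the libraries labelled Wtap-βKO, leaving out replicate 1 gave 2 higher and 4 lower, replicate 2 gave 4 and 5, and replicate 3 gave 1 and 3. Among the Wtap flox/flox libraries, leaving out replicate 1 gave 1 higher and 3 lower, replicate 2 gave 1 and 4, and replicate 3 gave 0 and 5, where limma on these 5 libraries left 6 genes higher at an unadjusted p under 0.05 and voom on all 6 libraries called 5 higher. Of all called genes 43.7% were higher, against 68.1% when the libraries were scaled to total reads and 63.2% when the 50 most abundant genes were left out of the scaling. None of the 9 called imprinted genes changed direction in any of its alternatives.

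**Figure D1:**
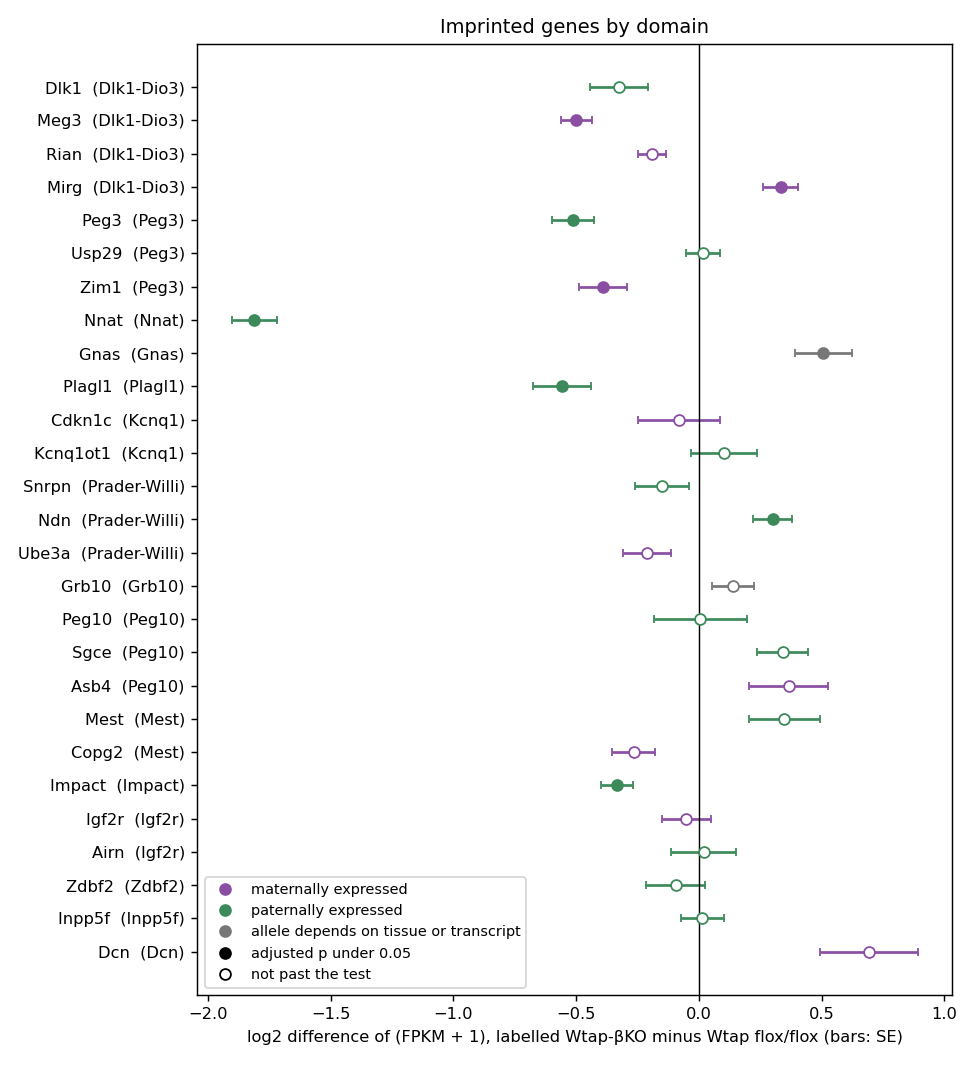
Log2 difference of FPKM plus 1, libraries labelled Wtap-βKO minus Wtap flox/flox (3 libraries each), for the 27 tested imprinted genes, with the domain in parentheses; bars are the SE from limma and filled points passed an adjusted p of 0.05. Nnat lies furthest left at -1.81, the 3 filled points on the right are Gnas, Ndn and Mirg, and neighbours in a domain often lie on different sides of 0.

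The largest difference among the 27 genes was that of Nnat. Nnat (ENSMUSG00000067786) lies on chromosome 2 from 157560078 to 157562522 on the plus strand (GRCm38), inside an intron of Blcap, which runs on the opposite strand. It encodes a small membrane protein of the endoplasmic reticulum and is expressed from the paternal allele. Nnat, Meg3 and Peg3 were the genes whose calls held in every alternative, and their start regions, 250 bases before to 50 after the annotated start, are shown here to place these 3 falls on the genome (RefSeq, GRCm38.p6, 5′ to 3′ on the gene's strand, capitals marking each CG and each TGCCGC or its complement GCGGCA).
Nnat, chr2:157559828-157560127, plus strand: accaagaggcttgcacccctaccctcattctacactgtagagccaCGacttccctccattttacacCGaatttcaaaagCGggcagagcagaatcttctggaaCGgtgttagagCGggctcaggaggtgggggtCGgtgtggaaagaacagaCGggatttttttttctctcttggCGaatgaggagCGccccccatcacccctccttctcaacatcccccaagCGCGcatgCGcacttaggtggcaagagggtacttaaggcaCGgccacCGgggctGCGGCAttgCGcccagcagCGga
Meg3, chr12:109540746-109541045, plus strand: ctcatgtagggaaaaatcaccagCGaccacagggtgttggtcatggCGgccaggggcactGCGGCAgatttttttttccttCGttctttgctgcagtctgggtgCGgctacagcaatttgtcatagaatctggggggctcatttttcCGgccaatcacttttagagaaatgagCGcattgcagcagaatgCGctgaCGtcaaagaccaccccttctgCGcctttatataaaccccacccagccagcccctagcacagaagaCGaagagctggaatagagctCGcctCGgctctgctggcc
Peg3, chr7:6730370-6730669, minus strand: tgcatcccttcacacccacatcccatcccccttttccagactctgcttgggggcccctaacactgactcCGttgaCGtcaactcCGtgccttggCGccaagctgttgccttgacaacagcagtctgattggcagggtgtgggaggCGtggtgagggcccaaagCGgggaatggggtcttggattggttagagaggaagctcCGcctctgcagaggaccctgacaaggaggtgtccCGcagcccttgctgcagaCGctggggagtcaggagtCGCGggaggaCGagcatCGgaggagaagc

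TGCCGC is the hexamer that the zinc finger protein ZFP57 binds when it is methylated, at control regions of imprinted clusters. It was searched on both strands. The Nnat window held 1 match and 17 CG dinucleotides, the Meg3 window 1 match and 13 CG, and the Peg3 window 0 matches and 13 CG. Where a gene had several windows, that with the most CG was shown. The other Meg3 window, from position 109545148, held 0 matches and 1 CG. Start regions were found for 27 of the 33 genes, in 42 windows, as some genes have several starts. Of the 42 windows 11 (26.2%) held the hexamer, against 11.6% of all 32851 windows, and the median window held 13.5 CG dinucleotides, against 7 over all windows. Windows of a gene can overlap, and the Mest windows from 30737800 and 30737803 are both among the 11. A match is a description of letters and no measured binding site.

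Nnat fell to 11.4, 10.96 and 10.3 FPKM in the libraries labelled Wtap-βKO, against 44.3, 42.7 and 35.5 FPKM in Wtap flox/flox libraries. Every library of the first group was below every control, with a gap wider than the range within either group. The means were 10.9 ± 0.581 FPKM in the libraries labelled Wtap-βKO and 40.9 ± 4.70 FPKM in Wtap flox/flox libraries (SD, n = 3 each), 3.75-fold lower (log2 difference -1.81, SE 0.09, limma adjusted p = 0.000148). Only 0.163% of all tested genes had a more negative log2 difference. Blcap, its host gene and itself imprinted in brain, fell by less, to 18.6 ± 0.0923 FPKM in the libraries labelled Wtap-βKO, against 25.5 ± 1.58 FPKM in Wtap flox/flox libraries (SD, n = 3 each; log2 difference -0.44, limma adjusted p = 0.00419). The ratio of Nnat to Blcap was 0.617, 0.587 and 0.555 in the libraries labelled Wtap-βKO and 1.73, 1.58 and 1.49 in Wtap flox/flox libraries, a 2.73-fold lower ratio (exact permutation test, p = 0.1, the lowest value possible with 3 libraries a group). This ratio was added after the values were seen.

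β-cell markers moved with Nnat. Of 10 β-cell genes 9 fell, with a median log2 difference of -1.20 (Slc2a2, Mafa, Ucn3, Trpm5, Nkx6-1, Pdx1, G6pc2, Slc30a8 and Glp1r; Iapp was not called). The summed level of the 10 was 12519 to 15063 FPKM in the libraries labelled Wtap-βKO and 14822 to 17166 FPKM in Wtap flox/flox libraries, most of it Iapp. Of 7 α-cell genes 5 rose, with summed levels of 2365 to 2811 FPKM in the libraries labelled Wtap-βKO and 1230 to 1377 FPKM in Wtap flox/flox libraries, and no β- or α-cell gene was at 0. Of the further marker lists, 2 of 3 δ-cell genes, 2 of 8 endothelial, 1 of 8 acinar, 1 of 5 ductal and 1 of 7 macrophage genes rose and none fell, and of 5 glial and nerve genes 0 were called (2 higher at an unadjusted limma p under 0.05 and 2 by voom). Over all tested genes 8.77% were called higher and 11.3% lower. In whole islets, fewer cells of a type and less RNA per cell cannot be told apart, and the part of these marker shifts in the fall of Nnat and in the other calls was not tested.

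**Figure D2:**
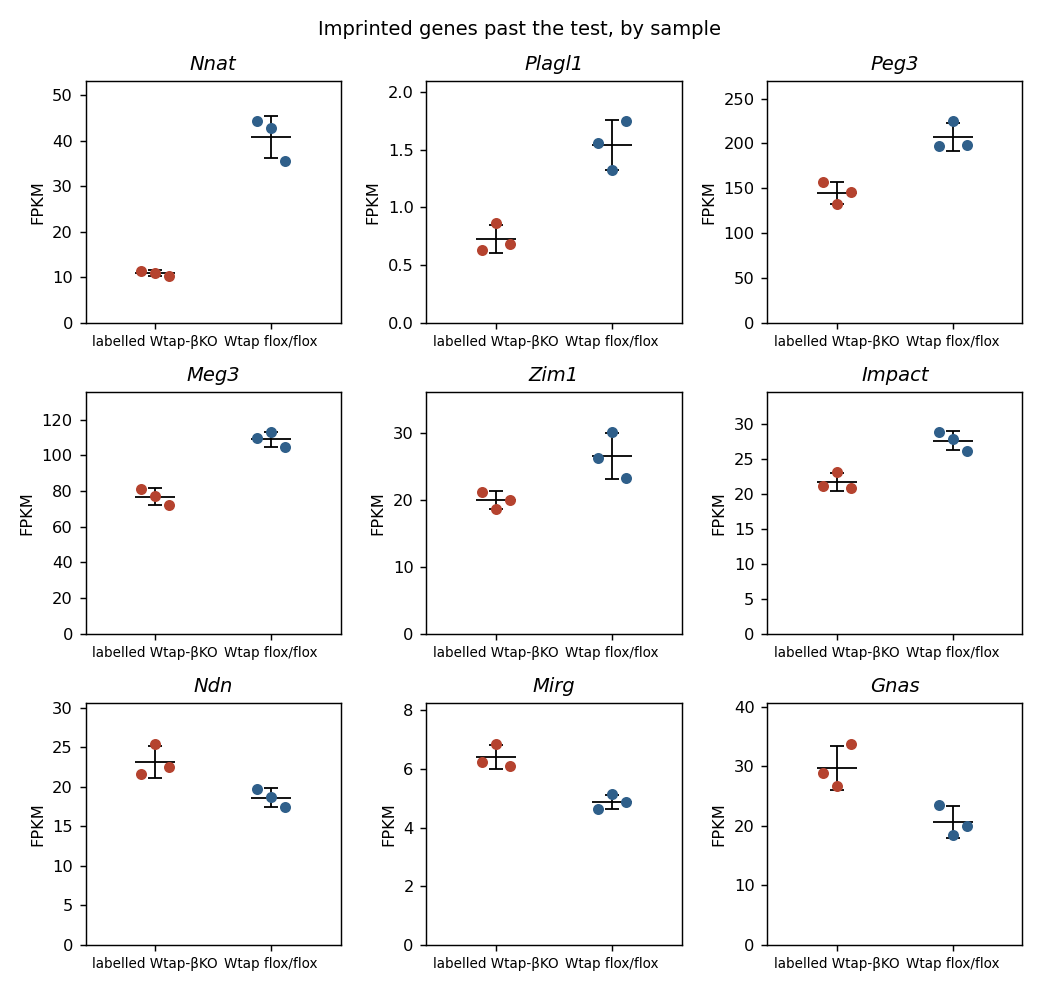
FPKM in every library for the 9 imprinted genes that passed the test, with libraries labelled Wtap-βKO on the left and Wtap flox/flox on the right of each panel, ordered by log2 difference; the wide mark is the mean and the bars are the SD (n = 3 each), and each linear axis starts at 0. In all 9 panels the groups do not overlap; the Nnat means are 10.9 FPKM on the left and 40.9 FPKM on the right.

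In the Dlk1-Dio3 domain on chromosome 12, genes of the same parental origin went both ways. Dlk1, expressed from the paternal allele, encodes a transmembrane protein related to Notch ligands. Meg3, Rian and Mirg are long noncoding RNAs of the maternal allele that follow each other on the plus strand and carry small nucleolar RNAs and microRNAs. Meg3 was lower, Rian differed by less and Mirg was higher in the libraries labelled Wtap-βKO.

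Meg3 (ENSMUSG00000021268, positions 109541001 to 109571726) had 81.2, 77.2 and 72.1 FPKM in the libraries labelled Wtap-βKO, against 109.5, 112.9 and 104.5 FPKM in Wtap flox/flox libraries. The groups lay well apart, on at least 22485 reads in each library. The fall was 1.42-fold (log2 difference -0.50, SE 0.06, limma adjusted p = 0.00336).

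Rian (positions 109603940 to 109661716) had 39.4, 39.3 and 40.8 FPKM in the libraries labelled Wtap-βKO, against 43.3, 47.8 and 45.8 FPKM in Wtap flox/flox libraries. The groups did not overlap, but the difference did not pass the test (log2 difference -0.19, SE 0.06, limma adjusted p = 0.0528). It passed in 2 of its 18 alternatives, with a mean FPKM of at least 5 (adjusted p = 0.0459) and with voom on the reads (adjusted p = 0.0349).

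Mirg (ENSMUSG00000097391, positions 109729764 to 109749460) rose to 6.23, 6.86 and 6.11 FPKM in the libraries labelled Wtap-βKO, against 4.63, 5.13 and 4.86 FPKM in Wtap flox/flox libraries. The lowest library of the first group was above the highest control. The rise was 1.31-fold (log2 difference 0.33, SE 0.07, limma adjusted p = 0.0196). The call was lost without Wtap flox/flox replicate 1 (adjusted p = 0.0724) and without replicate 3 (adjusted p = 0.0635).

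The ratio of Mirg to Meg3 needs no scaling between libraries. It was 0.0767, 0.0889 and 0.0847 in the libraries labelled Wtap-βKO and 0.0423, 0.0455 and 0.0465 in Wtap flox/flox libraries, 1.86-fold higher and without overlap (exact permutation test, p = 0.1, the smallest possible here; this ratio was added after the values were seen). The ratio of Rian to Meg3 was 1.24-fold higher in the libraries labelled Wtap-βKO, also without overlap (exact permutation test, p = 0.1). Dlk1 was low, at 1.07, 0.790 and 0.779 FPKM in the libraries labelled Wtap-βKO, against 1.32, 1.21 and 1.53 FPKM in Wtap flox/flox libraries. The Dlk1 groups lay apart but did not pass the test (log2 difference -0.33, limma adjusted p = 0.0948), and with voom on its reads it was called lower (adjusted p = 0.0296). Rtl1, a paternally expressed retrotransposon-derived gene of the domain, stayed under the filter, and Dio3 was listed at 0 in all libraries.

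**Figure D3:**
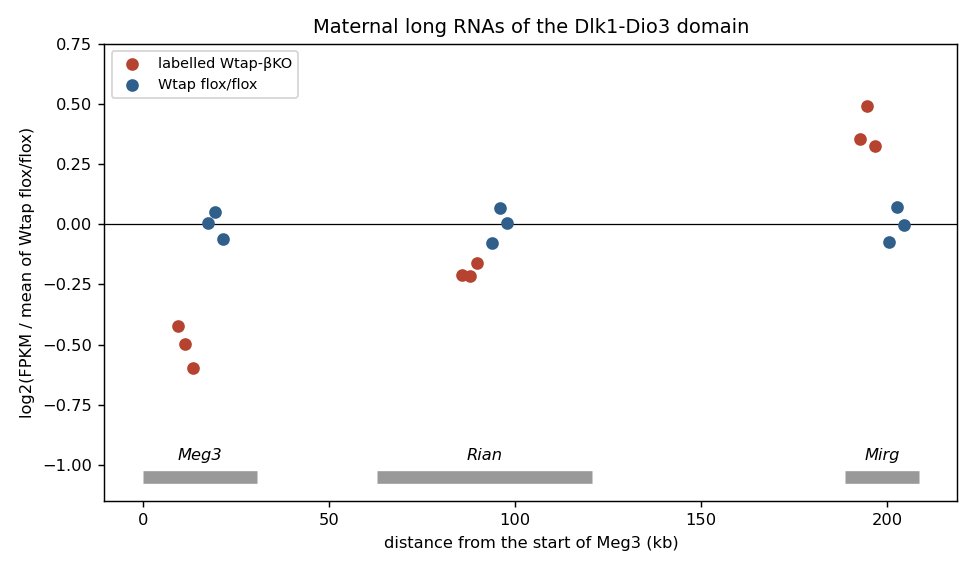
Log2 of FPKM over the mean of Wtap flox/flox for Meg3, Rian and Mirg in each of the 6 libraries, placed by distance in kb from the start of Meg3; grey bars show the span of each gene and points of a gene are spread sideways for legibility. The libraries labelled Wtap-βKO lie below the controls at Meg3, slightly below at Rian and above at Mirg.

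RNAs encoded in the introns of Rian were counted in rows of their own. The table holds 17 small nucleolar RNA and microRNA rows inside Rian, and 8 of them had reads, none of which shares an exon base with Rian. Their summed reads were 76, 47 and 70 in the libraries labelled Wtap-βKO, against 132, 122 and 134 in Wtap flox/flox libraries, with no overlap. Rian reads themselves came to 13551, 12819 and 12826 in the libraries labelled Wtap-βKO, against 13829, 13757 and 14867 in Wtap flox/flox libraries. The corresponding rows inside Mirg had 25, 22 and 18 reads in the libraries labelled Wtap-βKO, against 17, 26 and 29 reads in Wtap flox/flox libraries, and the groups overlapped. These sums and the Rian reads are not scaled to library size. The sums were formed after the values were seen and were not tested as sums. In the fit over all genes, 3 of the 8 rows inside Rian were called lower, Mir1188, Gm24564 and Gm25357 (limma adjusted p = 0.0253, 0.0251 and 0.0105), on 20, 64 and 6 reads in the 3 libraries labelled Wtap-βKO together and 62, 129 and 25 reads in the 3 Wtap flox/flox libraries together. The share called lower over all tested genes was 11.3%. Poly-A selection leaves out mature small RNAs.

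The span of Mirg holds 26 mature microRNAs of the RefSeq table, that of Rian 6 and that of Meg3 3. Among them, a single pair shares a seed (bases 2 to 8, in capitals), and both lie in Mirg. Both precursors, Mir453 and Mir496a, share 0 exon bases with Mirg, so the rise of Mirg is no measure of them. Their own rows had 32 and 2 reads in the libraries labelled Wtap-βKO together, against 21 and 4 in the Wtap flox/flox libraries together. Neither row was called (limma adjusted p = 0.450 and 0.650). Mature levels were not measured.
mmu-miR-453, chr12:109735669-109735692: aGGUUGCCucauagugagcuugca
mmu-miR-496a-5p, chr12:109739132-109739152: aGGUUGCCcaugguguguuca

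The Peg3 domain on chromosome 7 holds the paternally expressed Peg3, a zinc finger gene known for effects on growth and maternal behaviour, and Usp29, a ubiquitin protease gene that starts beside it on the opposite strand. Zim1, another zinc finger gene of the domain, is expressed from the maternal allele. Peg3 was the most abundant of the 33 genes, and it fell together with Zim1, while Usp29 was level.

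Peg3 (ENSMUSG00000002265, positions 6703892 to 6730431, minus strand) fell to 156.3, 132.0 and 145.4 FPKM in the libraries labelled Wtap-βKO, against 197.5, 224.6 and 198.0 FPKM in Wtap flox/flox libraries. The groups did not overlap. The fall was 1.43-fold (log2 difference -0.51, SE 0.09, limma adjusted p = 0.00828).

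Zim1 (ENSMUSG00000002266, positions 6671269 to 6696450, minus strand) fell to 21.2, 18.5 and 20.002 FPKM in the libraries labelled Wtap-βKO, against 26.3, 30.0 and 23.3 FPKM in Wtap flox/flox libraries. The highest library labelled Wtap-βKO was below the lowest control. The fall was 1.33-fold (log2 difference -0.39, SE 0.10, limma adjusted p = 0.0336). The call was lost in 11 of 18 alternatives, among them scaling to total reads (adjusted p = 0.0989), the filter left out (0.0696) and leaving out replicate 1, 2 or 3 labelled Wtap-βKO (0.0564, 0.0749 and 0.0868) or Wtap flox/flox replicate 1 or 2 (0.0911 and 0.0816).

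Usp29 had 3.49, 3.55 and 3.27 FPKM in the libraries labelled Wtap-βKO and 3.43, 3.42 and 3.28 FPKM in Wtap flox/flox libraries. The groups overlapped (log2 difference 0.02, SE 0.07, limma adjusted p = 0.880). The ratio of Usp29 to Peg3 was 0.0223, 0.0269 and 0.0225 in the libraries labelled Wtap-βKO and 0.0174, 0.0152 and 0.0166 in Wtap flox/flox libraries, 1.45-fold higher without overlap (exact permutation test, p = 0.1). The ratio of Zim1 to Peg3 moved far less, 1.08-fold (exact permutation test, p = 0.1).

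Gnas and Plagl1 are imprinted genes with known parts in hormone secretion and in human transient neonatal diabetes. Gnas (ENSMUSG00000027523, chromosome 2, 174284320 to 174346744, plus strand) encodes the stimulatory G protein subunit that couples incretin receptors to cyclic AMP. Its alternative promoters give maternal, paternal and biallelic transcripts, all summed in a single row.

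Gnas rose to 28.8, 26.6 and 33.8 FPKM in the libraries labelled Wtap-βKO, against 23.5, 18.4 and 20.02 FPKM in Wtap flox/flox libraries. The lowest library labelled Wtap-βKO was above the highest control. The rise was 1.44-fold (log2 difference 0.51, SE 0.12, limma adjusted p = 0.0239). The call was lost with the filter left out (adjusted p = 0.0549), without replicate 1 or 3 labelled Wtap-βKO (0.0601 and 0.0662) and without Wtap flox/flox replicate 2 or 3 (0.0776 and 0.0767). Gnas shares 988 exon bases with Nespas and 1469 with Gm20721, both on the opposite strand, which this library type cannot separate; both were low, at means of 0.310 and 0.518 FPKM.

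Plagl1 (ENSMUSG00000019817, chromosome 10, 13060504 to 13131694, plus strand) encodes a zinc finger transcription factor of the paternal allele that regulates other imprinted genes. It fell to 0.631, 0.864 and 0.682 FPKM in the libraries labelled Wtap-βKO, against 1.55, 1.32 and 1.75 FPKM in Wtap flox/flox libraries, on 93, 121 and 92 reads in the first group and 213, 163 and 243 reads in the controls. The groups did not overlap. The ratio of means was 2.12-fold lower, and the log2 difference, which the added 1 compresses at this level, was -0.56 (SE 0.12, limma adjusted p = 0.0183) and -1.10 by voom on the reads. Of the fits with 1 library left out, the call was lost without replicate 1 or 3 labelled Wtap-βKO (adjusted p = 0.0554 and 0.0593) and without Wtap flox/flox replicate 1 or 3 (0.0628 and 0.0679).

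The Prader-Willi domain of chromosome 7 is mainly expressed from the paternal allele. Ndn encodes necdin, a MAGE protein that restrains cell proliferation, Snrpn a spliceosome protein, Mkrn3 a ring finger protein and Magel2 another MAGE protein, and Peg12 lies beside them. Ube3a, a ubiquitin ligase gene at the edge of the domain, is maternally expressed in neurons. Of the 3 genes tested here Ndn rose, and Snrpn and Ube3a were not called.

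Ndn (ENSMUSG00000033585, positions 62346569 to 62350262, plus strand) rose to 21.7, 25.5 and 22.5 FPKM in the libraries labelled Wtap-βKO, against 19.8, 18.7 and 17.4 FPKM in Wtap flox/flox libraries. The highest value was that of replicate 2 labelled Wtap-βKO. The rise was 1.25-fold (log2 difference 0.30, SE 0.08, limma adjusted p = 0.0391). The call was lost in 8 of 18 alternatives, among them leaving out replicate 2 or 3 labelled Wtap-βKO (adjusted p = 0.0591 and 0.0826), leaving out Wtap flox/flox replicate 1, 2 or 3 (0.0645, 0.1003 and 0.118) and the filter left out (0.0715).

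Snrpn had 10.3, 12.96 and 10.2 FPKM in the libraries labelled Wtap-βKO and 11.2, 12.4 and 13.7 FPKM in Wtap flox/flox libraries, which overlapped (limma adjusted p = 0.377). Ube3a had 3.58, 2.79 and 3.34 FPKM in the libraries labelled Wtap-βKO and 3.80, 3.64 and 4.23 FPKM in Wtap flox/flox libraries (log2 difference -0.21, limma adjusted p = 0.176). Ube3a shares 1803 exon bases with the antisense gene Snhg14, at a mean of 0.538 FPKM. Snrpn shares 589 of its 2159 exon bases with Gm38393 and 216 with Snurf, both on the same strand. Their means were 1.36 and 0 FPKM.

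Mkrn3 lay under the filter and was not part of the test. It had 0.833, 0.592 and 0.524 FPKM in the libraries labelled Wtap-βKO, against 0.0896, 0.0746 and 0.0662 FPKM in Wtap flox/flox libraries, which is 40, 27 and 23 reads in the first group and 4, 3 and 3 reads in the controls. With the filter left out, limma called it higher (log2 difference 0.61, adjusted p = 0.0130). It was singled out after its values were seen. Magel2 had 1, 17 and 3 reads in the libraries labelled Wtap-βKO and 5, 2 and 2 reads in Wtap flox/flox libraries, so that its high value was that of replicate 2 alone. Peg12 had 3 to 6 reads in the libraries labelled Wtap-βKO and 1 to 5 in Wtap flox/flox libraries.

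Impact, on chromosome 18 from 12972252 to 12992948 (ENSMUSG00000024423, plus strand), is paternally expressed and encodes an inhibitor of the kinase GCN2, which senses amino acid shortage. It fell to 21.2, 23.2 and 20.9 FPKM in the libraries labelled Wtap-βKO, against 28.8, 27.9 and 26.1 FPKM in Wtap flox/flox libraries. The groups did not overlap, and the fall was 1.27-fold (log2 difference -0.33, SE 0.06, limma adjusted p = 0.0143). The call was lost when the libraries were scaled to total reads (adjusted p = 0.0595), without replicate 3 labelled Wtap-βKO (0.0526) and without Wtap flox/flox replicate 1 or 2 (0.0575 and 0.0544).

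The growth factor locus Igf2-H19 had few counted reads. Igf2 shares 3596 of its 5723 exon bases with Gm49394 on the same strand, a gene listed at 0 FPKM. Whether reads from the shared bases were counted was not tested. Igf2, the fetal growth factor gene of the paternal allele, had 12, 21 and 16 reads in the libraries labelled Wtap-βKO, against 3, 5 and 2 reads in Wtap flox/flox libraries, at no more than 0.205 FPKM. H19, the maternal noncoding RNA beside it, had 0, 7 and 0 reads in the libraries labelled Wtap-βKO, against 1, 0 and 0 reads in Wtap flox/flox libraries. Neither was tested at the filter, and with the filter left out Igf2 was not called (limma adjusted p = 0.0810). Igf1r, which encodes the main receptor for IGF2, fell to 4.88, 4.74 and 4.92 FPKM in the libraries labelled Wtap-βKO, against 9.14, 8.07 and 7.91 FPKM in Wtap flox/flox libraries (log2 difference -0.68, limma adjusted p = 0.00168). It was the single call among 3 tested genes of the IGF axis, with 20.1% called over all tested genes.

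Igf2r, a scavenging receptor that clears IGF2, and Airn, the paternal noncoding RNA that overlaps it on the opposite strand, lie on chromosome 17 at 197 and 107 kb from Wtap. Igf2r had 18.0, 13.6 and 16.7 FPKM in the libraries labelled Wtap-βKO and 16.4, 16.4 and 16.96 FPKM in Wtap flox/flox libraries (log2 difference -0.05, SE 0.10, limma adjusted p = 0.754). Airn had 5.85, 3.74 and 5.08 FPKM in the libraries labelled Wtap-βKO and 4.71, 4.68 and 4.84 FPKM in Wtap flox/flox libraries (limma adjusted p = 0.933). The groups overlapped for both genes, and both were lowest in replicate 2 labelled Wtap-βKO. Without that library the log2 difference was 0.06 for Igf2r and 0.17 for Airn, neither of them called (limma adjusted p = 0.493 and 0.187).

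Of 21 tested genes within 1 Mb of Wtap, 2 were called higher and 0 lower by limma, with 1 lower at an unadjusted p under 0.05 and 0 lower by voom. Over all tested genes 8.77% were called higher and 11.3% lower. Slc22a2, an organic cation transporter gene of the same cluster that is imprinted in placenta, rose to 1.54, 1.53 and 1.42 FPKM in the libraries labelled Wtap-βKO, against 0.138, 0.102 and 0.204 FPKM in Wtap flox/flox libraries (ratio of means 10.1, log2 difference 1.12, limma adjusted p = 0.00139). Agpat4, an acyltransferase gene of phospholipid synthesis, rose to 4.28 ± 0.298 FPKM in the libraries labelled Wtap-βKO, against 3.22 ± 0.144 FPKM in Wtap flox/flox libraries (SD, n = 3 each; limma adjusted p = 0.0260). The call of Agpat4 was lost without replicate 1 or 3 labelled Wtap-βKO (adjusted p = 0.0620 and 0.0883) and without Wtap flox/flox replicate 1, 2 or 3 (0.0886, 0.0740 and 0.0613). Slc22a2 was named here because the count was small. It passed the filter only through the libraries labelled Wtap-βKO, with 72, 68 and 61 reads there and 6, 4 and 9 reads in Wtap flox/flox libraries, so its call and its place in the count of 2 support nothing further.

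The remaining imprinted genes did not pass the test. Dcn, the small proteoglycan decorin of fibroblasts, imprinted in placenta, had 3.47, 2.99 and 4.28 FPKM in the libraries labelled Wtap-βKO, against 2.14, 1.10 and 2.39 FPKM in Wtap flox/flox libraries. The groups lay apart (log2 difference 0.69, SE 0.20, limma adjusted p = 0.0511), and Dcn was called higher in 5 of 17 alternatives, with adjusted p down to 0.00688 by voom. Mesenchymal markers moved with it. Of 12 tested markers 9 were called higher, against 8.77% called higher over all tested genes. The summed level of the 13 listed markers was 160.2 to 182.7 FPKM in the libraries labelled Wtap-βKO. In Wtap flox/flox libraries it was 103.6 to 123.9 FPKM, and none of the 13 markers was at 0. Their part in the Dcn and Igf2 values was not tested.

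Sgce, the sarcoglycan gene of the Peg10 domain, was 2.18 ± 0.145 FPKM in the libraries labelled Wtap-βKO and 1.52 ± 0.248 FPKM in Wtap flox/flox libraries (n = 3 each, limma adjusted p = 0.0609; called higher in 4 of 17 alternatives). Asb4, an ankyrin repeat gene of the same domain, was 2.06 ± 0.630 FPKM in the libraries labelled Wtap-βKO and 1.35 ± 0.233 FPKM in Wtap flox/flox libraries (limma adjusted p = 0.157). Peg10, the retrotransposon-derived gene that shares a start region with Sgce, was level at 4.32 ± 1.18 FPKM in the libraries labelled Wtap-βKO and 4.26 ± 0.861 FPKM in Wtap flox/flox libraries (limma adjusted p = 0.987). Without replicate 2 labelled Wtap-βKO, the lowest of its libraries, the log2 difference of Peg10 was 0.17 (adjusted p = 0.502).

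Mest, a hydrolase gene of the paternal allele, had 4.95, 3.60 and 5.53 FPKM in the libraries labelled Wtap-βKO and 3.28, 3.10 and 3.93 FPKM in Wtap flox/flox libraries (limma adjusted p = 0.137). Without replicate 2 labelled Wtap-βKO it was called higher (log2 difference 0.49, adjusted p = 0.0270). Copg2, a coat protein gene of vesicle transport whose end overlaps that of Mest, was 8.60 ± 0.567 FPKM in the libraries labelled Wtap-βKO and 10.6 ± 1.16 FPKM in Wtap flox/flox libraries (limma adjusted p = 0.0773). The ratio of Copg2 to Mest was 1.87, 2.31 and 1.49 in the libraries labelled Wtap-βKO and 2.98, 3.23 and 3.03 in Wtap flox/flox libraries, without overlap (exact permutation test, p = 0.1). The genes share 912 exon bases on opposite strands, where reads cannot be assigned without strand.

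Grb10, which encodes an adaptor that dampens insulin receptor signalling, was 10.6 ± 1.203 FPKM in the libraries labelled Wtap-βKO and 9.54 ± 0.245 FPKM in Wtap flox/flox libraries (limma adjusted p = 0.301). It was called higher without replicate 2 labelled Wtap-βKO (log2 difference 0.23, adjusted p = 0.0387). Zdbf2 and the phosphoinositide phosphatase gene Inpp5f differed by -0.10 and 0.01 on the log2 scale (limma adjusted p = 0.621 and 0.926). Without replicate 2 labelled Wtap-βKO these differences were 0.04 and 0.06, and neither was called (limma adjusted p = 0.767 and 0.653). In the Kcnq1 domain the cell cycle inhibitor gene Cdkn1c was 1.08 ± 0.202 FPKM in the libraries labelled Wtap-βKO and 1.23 ± 0.451 FPKM in Wtap flox/flox libraries (limma adjusted p = 0.763). Kcnq1ot1, the noncoding RNA antisense to Kcnq1, was 0.595 ± 0.165 FPKM in the libraries labelled Wtap-βKO and 0.482 ± 0.0536 FPKM in Wtap flox/flox libraries (limma adjusted p = 0.637). Phlda2, a brake on placental growth, had 1 read in each group.

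**Figure D4:**
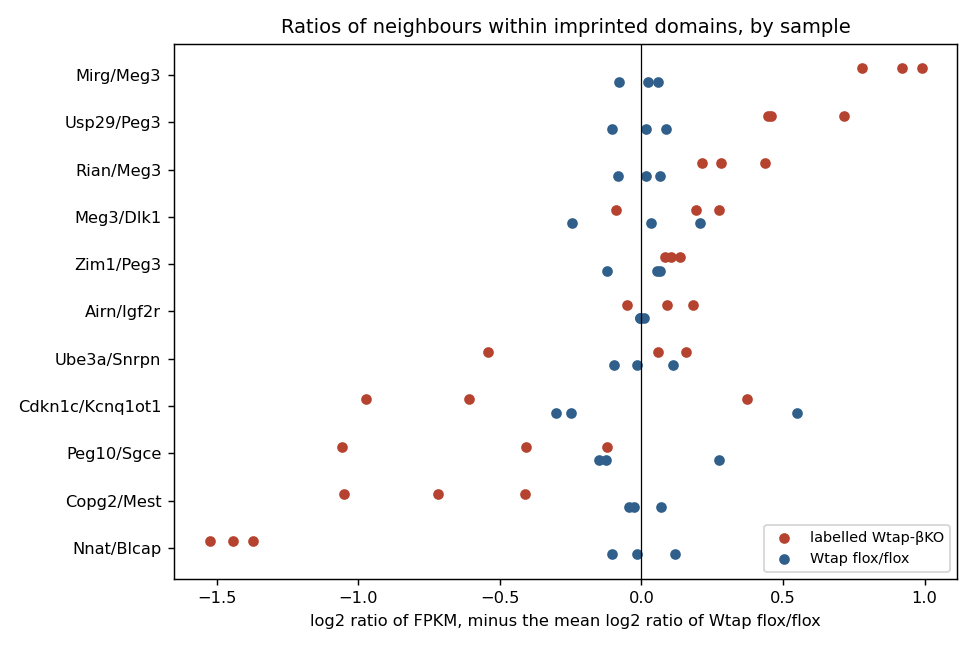
Log2 ratio of FPKM between 2 genes of an imprinted domain in each library, minus the mean of Wtap flox/flox, for 11 ratios (3 libraries per group). Red points lie wholly to the right of the blue ones for Mirg/Meg3, Usp29/Peg3, Rian/Meg3 and Zim1/Peg3 and wholly to the left for Copg2/Mest and Nnat/Blcap, and overlap them in the other ratios.

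Of 12 ratios between neighbours, 6 had groups that did not overlap, each with p = 0.1 by the exact permutation test and 0.2 after Benjamini-Hochberg adjustment over the 12. The ratio of H19 to Igf2 rested on too few reads to be read. By parent of origin, 4 of 15 tested paternally expressed genes fell and 1 rose, and 2 of 10 tested maternally expressed genes fell and 1 rose, each to be read against the 11.3% and 8.77% over all genes. The difference between these shares was not tested.

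GGACT, the most frequent form of the m6A consensus, was counted in the longest GENCODE M21 transcript of each gene. The median was 0.913 per kb over the 27 tested genes and 1.03 per kb over 14537 tested genes with a transcript of at least 500 bases. Of the genes called lower, Nnat held 0 in 1448 bases, Impact 0.266 per kb, Zim1 0.910, Plagl1 0.951, Peg3 1.04 and Meg3 1.10. Of those called higher, Gnas held 1.01 per kb, Mirg 1.57 and Ndn 1.62. A link between these counts and the direction of a call was not tested. Methylation of these transcripts was not measured.

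Beyond the 33, a further 57 mouse genes with reported imprinting in some tissue were found in the table, 37 of them tested, of which 6 rose and 8 fell. These counts are to be read against the 8.77% called higher and 11.3% called lower over all tested genes. Rasgrf1, a paternally expressed activator of Ras, fell to 7.38, 8.85 and 7.93 FPKM in the libraries labelled Wtap-βKO, against 17.4, 18.7 and 18.5 FPKM in Wtap flox/flox libraries (log2 difference -1.09, limma adjusted p = 0.000403). Th, tyrosine hydroxylase, fell 2.60-fold and Ddc, the next enzyme of dopamine synthesis, 1.43-fold (limma adjusted p = 0.00153 and 0.00233).

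Gatm, the first enzyme of creatine synthesis, rose to 29.0, 25.7 and 29.6 FPKM in the libraries labelled Wtap-βKO, against 13.3, 11.6 and 13.5 FPKM in Wtap flox/flox libraries (log2 difference 1.08, limma adjusted p = 0.000546). The tetraspanin gene Cd81 rose 1.62-fold (limma adjusted p = 0.000797). Of these 14, the calls of Rasgrf1, Th, Ddc, Gatm, Cd81 and Blcap held in all their alternatives. Slc22a2 is among the 6 counted as higher, but it passed the filter only through the libraries labelled Wtap-βKO, so its call supports nothing further. The remaining calls were not followed singly. The count of 8 lower dropped to 5 when replicate 1 labelled Wtap-βKO was left out, and likewise to 5 for each Wtap flox/flox library left out.

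Among 22 tested genes that keep or remove imprints, 1 rose and 2 fell, against 8.77% called higher and 11.3% called lower over all tested genes. Both counts lie below these shares. Setdb1, a histone H3 lysine 9 methyltransferase recruited by TRIM28, rose to 10.1, 10.96 and 10.6 FPKM in the libraries labelled Wtap-βKO, against 7.12, 6.78 and 7.15 FPKM in Wtap flox/flox libraries (log2 difference 0.53, limma adjusted p = 0.00215). Dnmt3a, a de novo DNA methyltransferase, fell to 14.1, 12.1 and 13.7 FPKM in the libraries labelled Wtap-βKO, against 18.5, 19.8 and 17.6 FPKM in Wtap flox/flox libraries (log2 difference -0.46, limma adjusted p = 0.00803). The groups did not overlap for either gene.

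The fall of Tet3, a 5-methylcytosine oxidase gene (log2 difference -0.23, limma adjusted p = 0.0481), was lost in 13 of 18 alternatives. Without replicate 1, 2 or 3 labelled Wtap-βKO its adjusted p was 0.0819, 0.0705 and 0.140, and without Wtap flox/flox replicate 1, 2 or 3 it was 0.0915, 0.138 and 0.126. The maintenance methyltransferase gene Dnmt1, Trim28 and Ctcf were not called (limma adjusted p = 0.168, 0.988 and 0.866), and Zfp57 lay under the filter, at 0.235 ± 0.0359 FPKM in the libraries labelled Wtap-βKO and 0.279 ± 0.130 FPKM in Wtap flox/flox libraries.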

How the data were processed

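Poly-A RNA of mouse islets was sequenced in pairs without a step that marks strand, per the labels' protocols. The authors deposited FPKM per gene with the gene length in bases, 1 column per sample; of the software, the submitters' processing notes list DESeq2 (1.20.0), featureCounts (1.5.0-p3), HISAT2 (2.0.5) and CASAVA, without roles, and they give mm10 and GRCm38 as genome builds. Multiplied by gene length, 100% of the values were whole numbers of reads to within 0.01. The labels call the samples independent biological replicates. Within a group, every pair of libraries differed by more than sampling noise (chi-square per degree of freedom 5.38 to 18.1).

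Genes with a mean of at least 0.5 FPKM entered a linear model of log2(FPKM + 1) in limma (3.58.1, R 4.3.3), whose moderated variance followed a trend in mean level. Tests were two-sided. P-values were adjusted over the whole set of tested genes by Benjamini-Hochberg and called under 0.05. Differences on this scale understate changes of low genes. Folds are ratios of mean FPKM, and SE is moderated by limma. Ratios within a domain were compared with two-sided exact permutation tests on log2 ratios. The fit was tested on simulated data. The imprinted genes, other lists and parental assignments were chosen with earlier results of these data known; the lists and assignments rest on general knowledge. Values in every library are given for called imprinted genes and for others above 20 FPKM, with further genes where they complete a domain, and up to 6 genes of each other list by smallest adjusted p with a mean of at least 1 FPKM. All 33 identifiers matched GENCODE M21, 32 with the same coordinates. Python 3.11.15, pandas 2.3.3, SciPy 1.17.1 and matplotlib 3.10.9 were used. Alternatives are named in the closing section.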

Additional observations from a re-analysis of the deposited data

How the results depend on the processing

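The fit was repeated under 18 alternatives: median-of-ratios and quantile normalization, scaling to total reads or without the 50 most abundant genes, pseudocounts of 0.1 and 0.5, no filter, a mean of at least 5 FPKM, no or a robust variance trend, voom, the replicate number as a block, and each library left out. Of 474 refits of the 27 imprinted genes 423 stayed on the same side of the threshold, 35 lost a call, 16 gained one and 0 reversed a call; causes were not tested. Meg3, Peg3 and Nnat kept their calls in all 18.

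Over all genes, 1397 were higher and 1798 lower, against 2334 and 1094 scaled to total reads and 2098 higher without the 50 most abundant genes. Imprinted genes called higher were 3, against 5 under each of these scalings and 5 by voom. With a mean of at least 5 FPKM, 3 other imprinted genes were higher, and 0 of 8 genes near Wtap (1 at an unadjusted p under 0.05, 2 by voom at the usual filter); with no filter 1 gene near Wtap was higher. With 1 library left out, all genes gave 774 to 1379 higher and 1020 to 1834 lower, imprinted genes 0 to 4 higher and 3 to 5 lower, other imprinted genes 5 to 8 lower, and genes near Wtap 1 to 2 higher. The 2 Mb window gave 3. The Meg3/Dlk1 log2 ratio, 0.13 higher, became -0.17 with 1 added to both values, since Dlk1 is near 1 FPKM, and Ube3a/Snrpn, at -0.11, ranged from -0.24 to 0.11 with 1 library left out, positive without replicate 2 labelled Wtap-βKO.

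Same-numbered libraries of the groups deviated together only weakly (r from 0.02 to 0.04 across genes), so the numbers were not taken as pairs, although all 6 libraries matched their own number best. With the replicate block 1148 genes were higher and 1490 lower, with 3 imprinted genes higher and 4 lower: Zim1, Plagl1 and Ndn lost their calls (adjusted p = 0.0667, 0.0534 and 0.0609), as did Tet3 (0.0896), and Dcn gained one (0.0232).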
